A study of Mus musculus with 10 samples.

Results

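The comparison set cortical cells with a conditional knockout of Ccn1 (CcKO) against wild-type (WT) cells at embryonic day E17.5. Its members were the 4 libraries whose labels give E17.5, of 10 in the series, and every expressed gene in them, 15371 of 27178 gene IDs. CcKO embryos carried Nestin-Cre and Ccn1fl/fl on C57BL/6, and WT embryos were C57BL/6. All 4 libraries, 2 per group, came from cortex that received, by in utero electroporation at E14.5, the PiggyBac transposase plasmid (3 µg/µl) and the control PiggyBac plasmid PB-Ctrl (1.5 µg/µl). GFP-positive cells were sorted, so both groups hold electroporated cells and what those cells gave rise to. Nestin-Cre acts in neural progenitors, which limits the deletion to them and their progeny, and whether the WT embryos carried Cre is not stated. The other 6 libraries, from ICR embryos with electroporation on E13.5 and collection on E15.5, were 2 each with PB-CCN1, a plasmid that adds CCN1, PB-GPC4, one that adds the heparan sulfate proteoglycan glypican 4, and PB-Ctrl. They served here for the spread between replicates, to set the E17.5 libraries beside others, and for a comparison with added CCN1. Whether replicates came from separate embryos or litters is not stated in the labels. The p-values therefore speak of the spread among these libraries, which may be technical.

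CCN1 (CYR61) is a secreted matricellular protein that binds integrins and heparan sulfate proteoglycans, and its gene is a widely used target of the Hippo effectors YAP and TAZ, which act through TEAD factors. In the embryonic cortex, radial glia line the ventricle, divide, and give rise to neurons directly or through intermediate progenitors. Notch, Hedgehog, FGF and BMP signals act on whether a radial glial cell renews itself or differentiates.

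Promoters are shown for Ccn1 and for the Hippo pathway genes Mob1a and Vgll4, because the core TEAD motif GGAATG or its reverse complement CATTCC stands in each. They are the 250 bases before the start site in the RefSeq promoter table (GRCm38.p6), 5′ to 3′ on the gene's strand, with the motif in capitals. The windows are chr3:145649986-145650235 (minus strand) for Ccn1, chr6:83325789-83326038 (plus strand) for Mob1a and chr6:114969204-114969453 (minus strand) for Vgll4.
Ccn1: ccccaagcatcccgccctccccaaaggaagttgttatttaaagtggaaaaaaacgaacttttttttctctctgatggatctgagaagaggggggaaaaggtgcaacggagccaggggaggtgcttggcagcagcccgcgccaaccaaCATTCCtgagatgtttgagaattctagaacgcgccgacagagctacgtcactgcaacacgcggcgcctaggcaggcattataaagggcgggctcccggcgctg
Mob1a: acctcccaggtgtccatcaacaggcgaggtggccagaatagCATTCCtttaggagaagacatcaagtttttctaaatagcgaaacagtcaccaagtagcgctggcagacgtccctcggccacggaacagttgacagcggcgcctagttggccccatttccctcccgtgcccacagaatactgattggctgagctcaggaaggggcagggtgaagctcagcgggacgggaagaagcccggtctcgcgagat
Vgll4: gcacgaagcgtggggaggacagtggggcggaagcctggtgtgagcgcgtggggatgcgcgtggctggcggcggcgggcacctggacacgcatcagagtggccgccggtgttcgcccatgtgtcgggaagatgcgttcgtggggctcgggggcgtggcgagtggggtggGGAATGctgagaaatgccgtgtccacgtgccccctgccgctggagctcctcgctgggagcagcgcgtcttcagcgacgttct
The motif began 103 bases before the start site in Ccn1, 209 in Mob1a and 82 in Vgll4. On either strand it stood in 11 of the 20 Hippo and YAP list genes with a window, against 12.8% of the 11539 tested genes with one. A gene counted if any of its windows held the motif, with 14697 windows in all. The list includes known YAP targets, such as Amotl2, Axl and Crim1 among the 11, so this share is a description and not a test. Other motifs were searched in other lists too. A CSL motif stood in 3 of 20 Notch genes (6.48% of tested genes) and an E2F motif in 2 of 21 DNA replication genes (1.9%). A GLI motif stood in 0 of 11 Hedgehog genes (0.217%) and a sterol motif in 0 of 13 cholesterol synthesis genes (0.0607%). Of the 11 Hippo and YAP genes with the TEAD motif, 6 rose in both fits described next. Mob1a and Vgll4 had the smallest adjusted p among those 6. Of all 23 tested genes of that list, with or without the motif, 11 rose in both fits, beside 8.4% of all genes tested. A match describes these letters only and is not evidence of binding.

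Ccn1 (Entrez gene 16007, chromosome 3, 145646971 to 145649985) fell in CcKO cells. It had 17 and 86 counts in CcKO, against 415 and 340 counts in WT, or 0.669 and 3.11 CPM against 17.7 and 12.1 CPM. The groups did not overlap, where both CcKO libraries lay below both WT libraries for 28.6% of all genes tested. The second CcKO library kept more of the Ccn1 transcript than the first. The log2 fold change, CcKO over WT here and throughout, was -2.93 (SE 0.24, edgeR adjusted p = 1.83e-10). With CcKO replicate 2 left out it was -4.47, and with CcKO replicate 1 left out -2.24, with adjusted p of 2.39e-14 and 1.44e-11. The counts are over the whole gene, and which exons the floxed allele removes is not given in the sources used here.

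In CcKO cells 2676 genes rose and 1987, Ccn1 included, fell, at an adjusted p under 0.05. These are 17.4% and 12.9% of the genes tested. Genes of radial glia, of Hedgehog, Notch, FGF and Hippo signalling, and of DNA replication were among the rises, and Stmn1, a microtubule regulator, and the long non-coding RNAs Meg3 and Gas5 were among the falls. Most changes were modest, since 340 genes (2.21%) rose and 77 (0.501%) fell by at least 2-fold. With the correction for transcript length described next, 284 (1.85%) rose and 33 (0.215%) fell by that much. In bulk samples, more cells of a type and more RNA per cell cannot be told apart.

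The WT libraries differed from all other libraries by a trend with transcript length. Genes were split into 10 groups of equal size (deciles) by deposited length. In the decile of the shortest genes, the median level stood 0.21 and 0.29 log2 units above the mean of the 10 libraries in WT replicates 1 and 2. In the longest decile it stood 0.30 and 0.37 below it (medians of -0.30 and -0.37), while the CcKO libraries stayed between -0.06 and 0.04 in every decile. The fold change of a gene moved with its length (Spearman's rho 0.43 across 15371 genes, which are not independent), with a median of -0.28 for the shortest genes and of 0.33 for the longest. In the longest decile 59.4% of genes were called higher and 1.3% lower; in the shortest, 2.8% and 29.7%. With the smooth length trend taken out of every library, rho was 0.012, and 1435 genes (9.34%) rose and 1224 (7.96%) fell. Without WT replicate 2 the calls numbered 2919, and 1493 length removed, against 4663 and 2659 with all libraries. Both fits called 1291 genes (8.4%) higher and 767 (4.99%) lower. Each result below is given without and then with this removal, written as "length removed". The removal used deposited lengths. Of the 209 genes with a GENCODE M21 transcript among those at least 2-fold higher length removed, 45.0% had one at least 2 times that length. The share was 8.29% over all genes tested. Whether some trend remains in single genes, such as Cdk6, Bmpr2 and Mib1 below, was not tested. List counts below stand beside 17.4% higher and 12.9% lower of all genes, and 9.34% and 7.96% length removed.

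**Figure D1:**
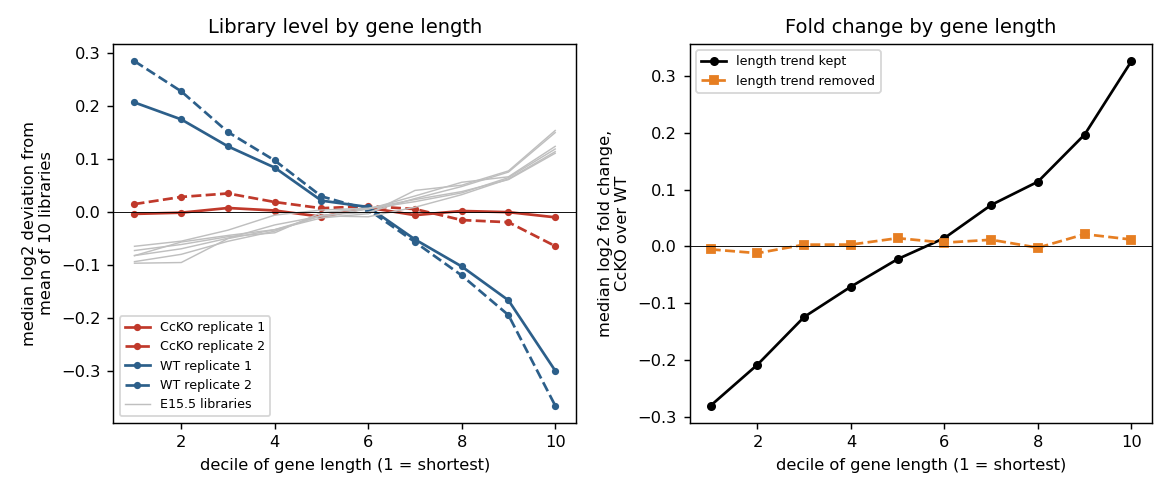
Left, the median log2 deviation of each library from the mean of the 10 libraries, by decile of gene length (1 is the shortest); right, the median log2 fold change of CcKO over WT by the same deciles, with the trend kept (circles) and removed (squares). The 2 WT lines slope down from 0.21 and 0.29 to -0.30 and -0.37, the CcKO lines lie near 0, and the 6 E15.5 libraries (grey) slope the other way.

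Most calls also set the WT libraries, rather than the CcKO libraries, apart from the E15.5 cells. Of the 2676 rises, 2147 (80.2%) had both WT libraries below all 8 others, and 486 (18.2%) had both CcKO libraries above all 8 others. Of the 1987 falls, 1597 (80.4%) had WT above all others and 278 (14.0%) had CcKO below all others. Length removed, WT stood apart in 76.7% of rises and 74.8% of falls, CcKO in 21.4% of each. Over all genes tested, the WT libraries were below the other 8 for 20.4% and above for 18.4%, and the CcKO libraries above for 7.27% and below for 4.7%. Length removed, these shares were 14.3% and 14.7% for WT, and 6.81% and 5.69% for CcKO. The E15.5 libraries differ from WT in strain, age and day of electroporation too, and a group difference and a difference in library preparation cannot be told apart with 2 libraries per group. Replicates lay close together: the median absolute log2 difference was 0.10 between the CcKO libraries and 0.10 between the WT libraries, against 0.18 to 0.23 across groups. Each library had reads from Xist (14412 to 26338 counts) and from the Y-linked Ddx3y (594 to 951 counts), so both sexes were present in all 4.

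The 12 largest rises, ranked by the length-removed fold change among genes called in both fits, included the following genes. Gprin3, which encodes a G-protein-regulated inducer of neurite outgrowth, had 2.48 and 1.81 CPM in CcKO, against 0.427 and 0.214 CPM in WT, a log2 change of 2.75 (SE 0.50, adjusted p = 0.000105; length removed 2.74). Its relative Gprin2 rose by 2.32 and 2.45 on the log2 scale. By the rule that chose them, both CcKO libraries were above both WT libraries for all 12.

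Zic1, a zinc-finger transcription factor of the developing nervous system, had 9.41 and 9.60 CPM in CcKO, against 1.92 and 2.53 CPM in WT. That is a log2 change of 2.08 (SE 0.24, adjusted p = 8.23e-08; length removed 2.04). Dok6, an adaptor of RET and Trk receptors, had 24.1 and 22.6 CPM in CcKO, against 7.38 and 6.14 CPM in WT, a log2 change of 1.79 and of 2.03 length removed. Tmem178b rose by 2.04 and Ptar1 by 2.40. Erbb4, the neuregulin receptor of migrating interneurons, had 1.61 and 3.77 CPM in CcKO, against 0.683 and 0.428 CPM in WT. Its log2 fold change of 2.29 kept its call with each library left out, but length removed it had an adjusted p of 0.086 without CcKO replicate 2.

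Single libraries carried some of the largest values. Fam177a had 0.630 and 4.06 CPM in CcKO, against 0.341 and 0.535 CPM in WT, and its log2 fold change of 2.40 was 0.49 (adjusted p = 0.78) without CcKO replicate 2. Its call was also lost without either WT library (adjusted p of 0.0966 and 0.0597). Acat3, which has a close paralog, Acat2, had 2.44 and 9.74 CPM in CcKO, against 0.981 and 1.75 CPM in WT. Its log2 fold change of 2.14 was 0.81 (adjusted p = 0.21) without CcKO replicate 2. Rnaset2a, a near-identical copy of Rnaset2b, had 1.81 and 2.75 CPM in CcKO, against 18.5 and 2.82 CPM in WT, and its fall of -2.20 was -0.30 (adjusted p = 0.51) without WT replicate 1. These genes share sequence or stand on 1 library, so their values are uncertain.

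Among the falls, the maternally expressed long non-coding RNA Meg3 had the smallest adjusted p of the 12 largest by the same ranking. It had 79.4 and 78.1 CPM in CcKO, against 134 and 149 CPM in WT, a log2 change of -0.85 (SE 0.07, adjusted p = 9.76e-11), which is less than 2-fold. Length removed, it was -1.33 (adjusted p = 1.59e-13). Rian, from the same imprinted cluster, fell by 0.31 and 0.38 on the log2 scale. Muc6, a gel-forming mucin gene, had 5.39 and 2.35 CPM in CcKO, against 9.04 and 9.53 CPM in WT, a log2 change of -1.27 and of -1.58 length removed. Several of the others had low levels, such as Ctf1, the cytokine cardiotrophin 1, with 1.46 and 1.16 CPM in CcKO against 2.99 and 3.25 CPM in WT. Length removed, the fall of Ctf1 was called in only 1 of the 4 runs with a library left out. Snora31, a small nucleolar RNA within a host gene, fell by 1.48 on the log2 scale, and reads of its host cannot be told apart from its own. Length removed, it had -0.88 (adjusted p = 0.0831) without CcKO replicate 2.

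**Figure D2:**
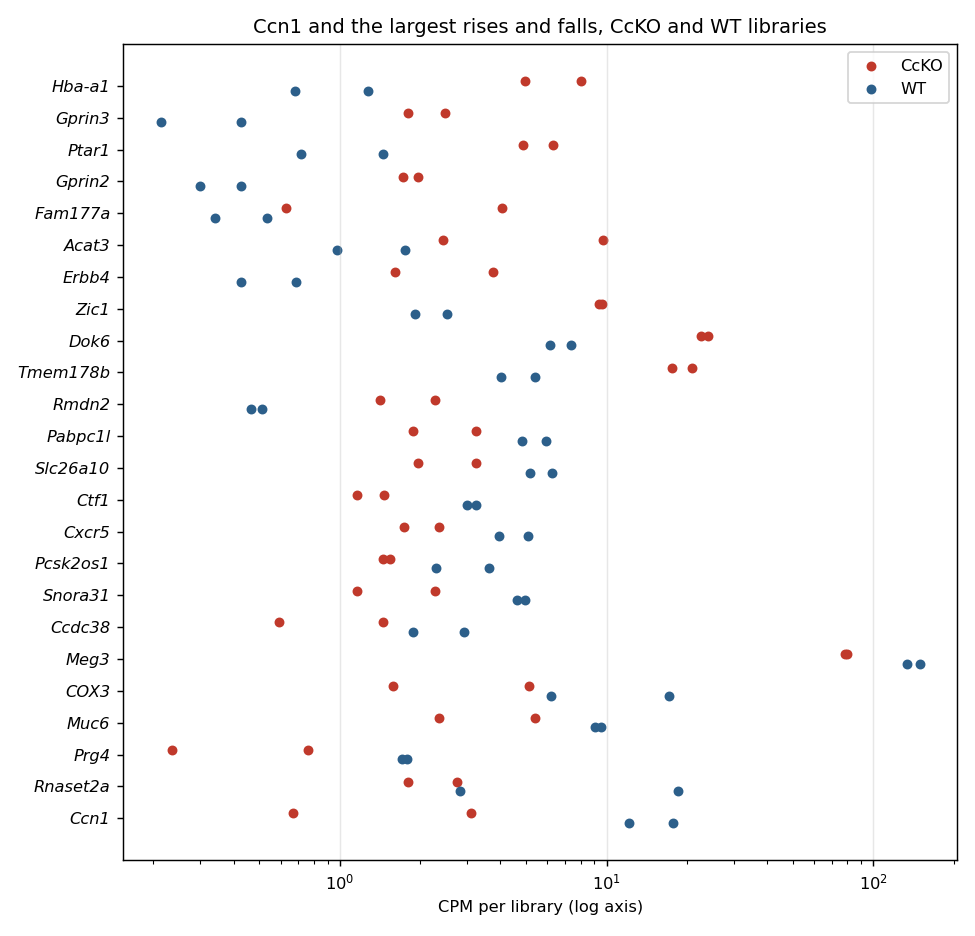
CPM in each library (log axis) of Ccn1, 11 of the 12 largest rises and the 12 largest falls called in both fits (ranked by the length-removed fold change), with CcKO (red) drawn above WT (blue) in each row. CcKO points lie right of WT points for the rises, and Ccn1 lies between 0.669 and 3.11 CPM in CcKO and 12.1 and 17.7 CPM in WT; Rnaset2a shows 1 WT point far from the other.

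Of 23 radial glial genes tested, 15 rose and none fell, and length removed 16 rose and none fell, with 13 rising in both fits. The median log2 fold change was 0.36, and 0.29 length removed, against 0.02 and 0.0044 over all genes tested. Leaving out each library in turn gave 13 to 18 rises, and 11 to 15 length removed. With the trend kept, the members' summed level was 3820 and 4060 CPM in CcKO, against 3290 and 3160 CPM in WT, so the groups did not overlap. Both CcKO libraries were above both WT libraries for 32.7% of all genes tested. Ptprz1, a member of 8068 bases, had 749 and 704 CPM in CcKO, against 569 and 491 CPM in WT. It rose by 0.46, and by 0.15 length removed. The length-removed rise of Ptprz1 was 0.12 without CcKO replicate 1 and 0.08 without WT replicate 2, and its call was lost in both runs.

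Tnc, the matrix glycoprotein tenascin C of the progenitor niche, had 308 and 309 CPM in CcKO, against 186 and 163 CPM in WT. The log2 change was 0.82 (SE 0.06, adjusted p = 7.14e-11), and 0.56 length removed. Sox2, the transcription factor that marks neural progenitors, had 92.1 and 106 CPM in CcKO, against 72.8 and 72.7 CPM in WT, with log2 fold changes of 0.45 and 0.49. Zfp36l1, an RNA-decay factor, rose by 0.63 and 0.62, and Aldoc, an aldolase of the glial lineage, by 0.36 and 0.49. Nes, looked at after its values were seen, rose by 0.34 (adjusted p = 0.00048) with the trend kept and had 0.13 (adjusted p = 0.24) length removed.

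Of 9 genes known from basal radial glia, which divide away from the ventricle and share several markers with the list above, 4 rose in both fits. Hopx, a homeodomain protein, had 9.13 and 9.85 CPM in CcKO, against 5.67 and 6.56 CPM in WT, a log2 change of 0.63 (SE 0.19, adjusted p = 0.012) and of 0.78 length removed. With the trend kept its adjusted p was 0.072 without CcKO replicate 2 and 0.089 without WT replicate 1. Il6st, the gp130 receptor subunit for LIF-type cytokines, rose by 0.70 and 0.52, with an adjusted p of 0.0526 without WT replicate 1 length removed. The 17 intermediate progenitor genes held 2 rises and 4 falls, and length removed 3 rises and no fall. They depended on the CcKO libraries: 7 rose and 1 fell without replicate 1, and 1 rose and 5 fell without replicate 2. Kif26b, a kinesin family member on that list, had 87.1 and 92.0 CPM in CcKO, against 43.6 and 43.4 CPM in WT, and rose by 1.04 (SE 0.07, adjusted p = 2.13e-12; length removed 0.76).

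Of 24 DNA replication genes, 7 rose and 2 fell, and length removed 8 rose and none fell. Over all genes tested, 17.4% rose and 12.9% fell, and length removed 9.34% rose and 7.96% fell. Mcm2, a subunit of the replicative helicase, had 70.6 and 77.6 CPM in CcKO, against 50.8 and 44.2 CPM in WT, with log2 fold changes of 0.65 (SE 0.07, adjusted p = 1.07e-07) and 0.60. Mcm3 of the same helicase rose by 0.51 in both fits, and Rrm2, the inducible subunit of ribonucleotide reductase, by 0.42 and 0.49. Without CcKO replicate 2, 5 replication genes rose length removed.

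Of 24 mitosis genes, 11 rose (7 without CcKO replicate 2) and none fell, and length removed 8 rose and none fell. Mki67, the proliferation antigen, had 221 CPM in both CcKO libraries, against 146 and 138 CPM in WT, a log2 change of 0.63 (SE 0.05, adjusted p = 9.54e-11) and of 0.25 length removed. Length removed, the count depended on the libraries: 3 rose without CcKO replicate 2, 3 without WT replicate 2, 5 without WT replicate 1 and 16 without CcKO replicate 1. Anln, the cytokinetic ring protein anillin, rose by 0.72 and 0.54, with an adjusted p of 0.0623 without WT replicate 2 length removed. The 14 tested genes of a histone list gave no call with the trend kept and 1 rise length removed. That list mixes replication-dependent genes with replacement variants such as H2az1 and H3f3b.

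Cdk6, the kinase that pairs with D-type cyclins in G1, had 32.4 and 33.2 CPM in CcKO, against 9.17 and 9.45 CPM in WT. Its log2 fold change was 1.82 (SE 0.11, adjusted p = 3.56e-13), and 1.86 length removed. The cyclin Ccnd2 had 237 and 286 CPM in CcKO, against 159 and 162 CPM in WT, with log2 fold changes of 0.71 and 0.51. Of 18 G1 regulators, 7 rose and 1 fell, and length removed 4 rose and none fell. With the trend kept, 4 rose without CcKO replicate 1 or without WT replicate 2.

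Of 25 Notch pathway genes, 11 rose and 1 fell, and length removed 11 rose and none fell. Notch1 had 123 and 139 CPM in CcKO, against 61.8 and 58.6 CPM in WT, a log2 change of 1.12 (SE 0.07, adjusted p = 2.83e-13) and of 0.76 length removed. Notch2 rose by 1.00 and 0.61. Mib1, the ubiquitin ligase that activates Notch ligands, had 55.4 and 56.7 CPM in CcKO, against 20.8 and 19.5 CPM in WT, with log2 fold changes of 1.48 (SE 0.08, adjusted p = 3.25e-14) and 1.40. Adam10, the protease that cleaves the receptor, rose by 0.54 and 0.40. The target genes Hes1 and Hes5, picked after their values were seen, had log2 fold changes of 0.15 (adjusted p = 0.56) and -0.13 (adjusted p = 0.61). Hes5 changed sign length removed, to 0.07 (adjusted p = 0.83). In both fits 9 of 25 rose, and without CcKO replicate 2, 7 rose length removed.

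Of 14 Hedgehog pathway genes, 9 rose and none fell, and length removed 8 rose and none fell, with medians of 0.49 and 0.32. Ptch1, the receptor and a target of the pathway, had 17.9 and 18 CPM in CcKO, against 7.38 and 6.81 CPM in WT, with log2 fold changes of 1.34 (SE 0.14, adjusted p = 1.67e-08) and 1.22. Gas1, a co-receptor, had 81.1 and 90.2 CPM in CcKO, against 53.5 and 56.1 CPM in WT, and rose by 0.64 and 0.62. Negative regulators rose too: Gpr161, a ciliary receptor that restrains the pathway, by 1.15 and 1.24, and Sufu, which holds Gli proteins back, by 0.86 and 0.92. Gli3, which gives rise to the main repressor form, rose by 0.72 and 0.39, while the target Gli1 had 15 and 10.5 CPM in CcKO, against 7.42 and 11.1 CPM in WT, with overlapping groups (log2 fold change 0.45, adjusted p = 0.051). Both Gli genes were chosen after their values were seen. With each library left out in turn, 9 to 10 Hedgehog genes rose, and 7 to 8 length removed.

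Of 17 FGF and ERK pathway genes, 12 rose and 1 fell, and length removed 7 rose and none fell, with medians of 0.43 and 0.44. The named members are targets or feedback inhibitors of ERK signalling. Etv5, an ETS factor, had 49.2 and 48.3 CPM in CcKO, against 26.5 and 23.8 CPM in WT, with log2 fold changes of 0.95 (SE 0.09, adjusted p = 4.53e-09) and 0.87. Dusp4, an ERK phosphatase, had 161 and 187 CPM in CcKO, against 114 and 105 CPM in WT, and rose by 0.67 and 0.72. The Ras-ERK inhibitors Spred1 and Spred2 rose by 0.80 and 0.79, and both by 0.80 length removed.

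Of 23 Hippo and YAP genes, 17 rose and none fell, and length removed 11 rose and none fell. Mob1a, the adaptor of the LATS kinases, had 18.8 and 18.5 CPM in CcKO, against 9.39 and 10.6 CPM in WT, with log2 fold changes of 0.90 (SE 0.12, adjusted p = 1.75e-06) and 1.05. Its relative Mob1b rose by 0.86 and 0.84, and Vgll4, which competes with YAP for TEAD, by 0.52 and 0.70. Lats2, the kinase that inactivates YAP and itself a target, rose by 0.80 and 0.61. Fat4, an atypical cadherin, had 307 and 306 CPM in CcKO, against 187 and 156 CPM in WT, and its log2 fold change was 0.84 with the trend kept and 0.28 length removed. Ccn2, the relative of Ccn1 and a YAP target, had 3.54 and 5.03 CPM in CcKO, against 2.18 and 3.21 CPM in WT, a log2 change of 0.66 that did not pass the test (adjusted p = 0.069; length removed 0.71, 0.076). Lats2 and Ccn2 were chosen after their values were seen.

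Of 19 BMP and ID genes, 4 rose and 1 fell, beside 17.4% and 12.9% of all genes. Length removed, 5 rose and 2 fell, beside 9.34% and 7.96%. Bmpr2, the type II receptor, had 67.0 and 69.8 CPM in CcKO, against 21.7 and 16.7 CPM in WT. Its log2 fold change of 1.84 (SE 0.09, adjusted p = 3.16e-15; length removed 1.79) is a 3.59-fold rise. The type I receptor Bmpr1a rose by 0.42 and 0.24, and the shared mediator Smad4 by 0.44 and 0.40. Of 24 Wnt genes, 10 rose and 1 fell, and length removed 4 rose and 1 fell; without CcKO replicate 2 none rose length removed. Ctnnb1, which encodes β-catenin, rose by 0.20 and 0.13; length removed, the call was lost without CcKO replicate 2 (0.06, adjusted p = 0.375), WT replicate 1 (0.0577) or WT replicate 2 (0.139).

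**Figure D3:**
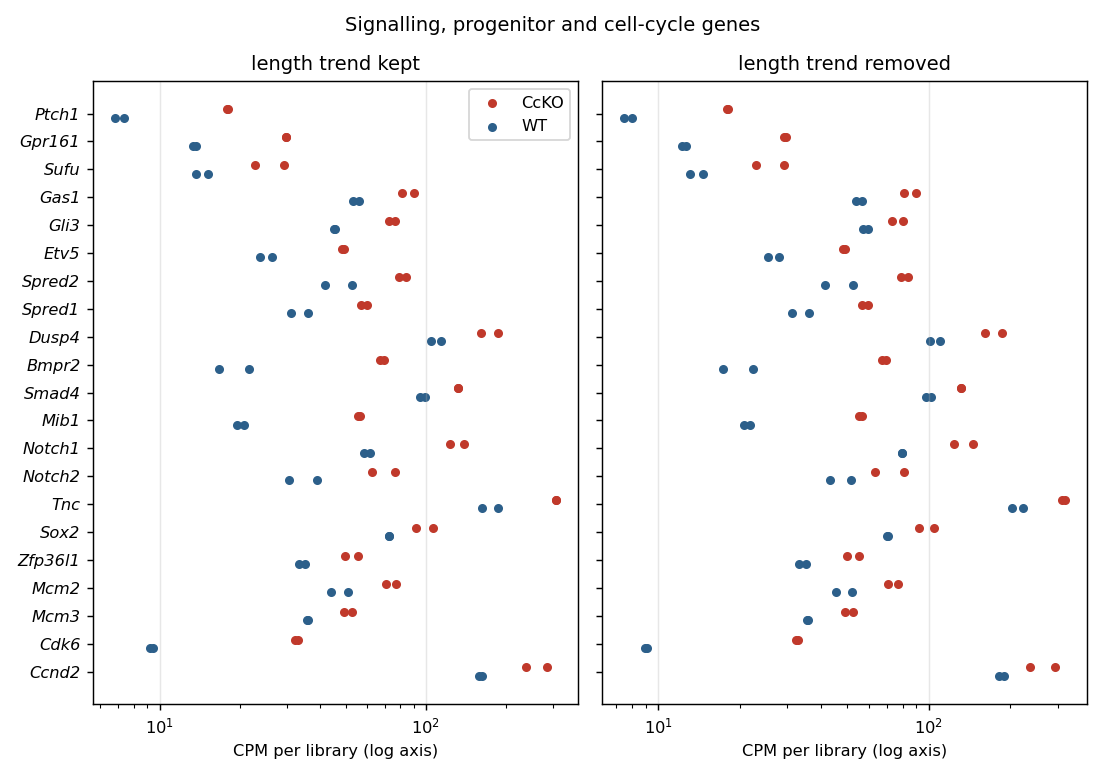
CPM in each library (log axis) for 21 signalling, progenitor and cell-cycle genes, with the length trend kept (left) and removed (right), CcKO (red) drawn above WT (blue). CcKO points lie right of WT points for each gene in both panels, with the widest gaps for Cdk6, Bmpr2 and Mib1.

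A list of the CCN family, integrin subunits and the receptors Sdc4 and Lrp1, Ccn1 left out, had 14 tested genes. Of these, 5 rose and none fell, and 3 rose length removed. The integrin subunits Itga6, Itgb8 and Itgav rose by 0.73, 0.93 and 0.76, and by 0.62, 0.92 and 0.49 length removed. Length removed, Itgav lost its call without CcKO replicate 1 (adjusted p = 0.0699) or WT replicate 2 (0.12). Itgb8 had 11 and 11.8 CPM in CcKO, against 6.57 and 5.42 CPM in WT. The 26 heparan sulfate proteoglycan genes held 10 rises and 1 fall, and length removed 5 rises and 2 falls (no fall without WT replicate 2). Xylt1, which starts glycosaminoglycan chains, had 8.97 and 9.42 CPM in CcKO, against 3.28 and 2.35 CPM in WT, with log2 fold changes of 1.71 (SE 0.21, adjusted p = 3.77e-07) and 1.70. Sulf2, which removes 6-O-sulfate from heparan sulfate outside the cell, rose by 1.16 and 1.05, and Ndst1, an N-sulfotransferase, by 0.77 and 0.56.

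Of 19 laminin and collagen genes, 10 rose and none fell, and 3 rose length removed. These were Lamc1, Lama1 and Lama5, chains of basement membrane laminins, with log2 fold changes of 0.64, 1.07 and 0.83, and of 0.35, 0.70 and 0.40 length removed. Length removed, Lama1 lost its call without CcKO replicate 1 (adjusted p = 0.0992) or WT replicate 1 (0.159). Lama5 lost its call without CcKO replicate 1, CcKO replicate 2 or WT replicate 1 (adjusted p of 0.0858, 0.0762 and 0.291), with 0.26 in the last of these. Without WT replicate 2, 5 rose with the trend kept. Of 10 chondroitin sulfate matrix genes, 7 rose, and 3 length removed. Tnr, or tenascin R, had 31 and 23.4 CPM in CcKO, against 10.7 and 5.89 CPM in WT, a log2 change of 1.73 (SE 0.21, adjusted p = 2.23e-07) and of 1.55 length removed. The endothelial and pericyte markers, which cover cells that make laminins and collagens, summed to 46.4 and 53 CPM in CcKO, against 35.1 and 40.7 CPM in WT. Of the 15 tested, 1 rose with the trend kept and 0 length removed. Markers of meninges and fibroblasts summed to 22.4 and 15.1 CPM in CcKO, against 20.3 and 21.4 CPM in WT, with overlapping groups. The part of these cells in the changes was not tested.

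Of 22 newborn neuron genes, 6 rose and 7 fell, and length removed 2 rose and 5 fell. The rises numbered 2 without WT replicate 2 and, length removed, none without CcKO replicate 2 or WT replicate 2. Stmn1, the microtubule regulator stathmin, had 2430 and 2210 CPM in CcKO, against 3400 and 3300 CPM in WT, with log2 fold changes of -0.53 (SE 0.04, adjusted p = 6.36e-11) and -0.31. Neurod2, a proneural factor of glutamatergic neurons, fell by 0.21 and 0.23 on the log2 scale. Map1b, a microtubule-associated protein with a long transcript, rose by 0.62 with the trend kept and by 0.18 length removed. Length removed it had 0.05 (adjusted p = 0.658) without CcKO replicate 2 and 0.08 (adjusted p = 0.539) without WT replicate 2.

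Of 18 upper-layer genes, 10 rose and 2 fell, and length removed 7 rose and 1 fell. Without WT replicate 2 the rises numbered 5, and 2 length removed; without CcKO replicate 1, 4 rose and 3 fell length removed. Cux2 had 388 and 394 CPM in CcKO, against 308 and 303 CPM in WT, with log2 fold changes of 0.36 (SE 0.05, adjusted p = 1.39e-06) and 0.19. Pou3f1 went the other way and fell by 0.23 and 0.24 on the log2 scale. Of 16 deep-layer genes, 7 rose and none fell, and length removed 3 rose and 1 fell. Without WT replicate 2 the rises numbered 3, and 1 length removed. Bcl11b, also called Ctip2 and a factor of subcerebral projection neurons, had 69.8 and 75.1 CPM in CcKO, against 46.9 and 42.0 CPM in WT, with log2 fold changes of 0.71 and 0.41.

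Of 37 axon guidance genes, 21 rose and 1 fell, and length removed 11 rose and 4 fell. Length removed, 6 rose without CcKO replicate 2 and 1 fell without WT replicate 2. Robo1, a Slit receptor, had 359 and 356 CPM in CcKO, against 210 and 180 CPM in WT, with log2 fold changes of 0.87 (SE 0.06, adjusted p = 2.36e-11) and 0.59. The ephrin receptor Epha7 fell by 0.27 and by 0.57 length removed. With the trend kept its call was lost without CcKO replicate 2, WT replicate 1 or WT replicate 2 (adjusted p of 0.0817, 0.0745 and 0.0794), at log2 fold changes of -0.25 to -0.27. Of 30 ion channel genes, 16 rose and none fell, but length removed 9 rose and 6 fell (3 fell without CcKO replicate 2). Kcnq3, a subunit of the M-type potassium channel, had 27.1 and 26.5 CPM in CcKO, against 11.1 and 9.28 CPM in WT, and rose by 1.40 and 1.41.

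Of 29 transmitter receptor genes, 6 rose and 2 fell, beside 17.4% and 12.9% of all genes. Length removed, 4 rose and 3 fell, beside 9.34% and 7.96%. Grin2b, the NMDA receptor subunit that prevails before birth, had 26.3 and 21 CPM in CcKO, against 9.22 and 6.85 CPM in WT, with log2 fold changes of 1.56 (SE 0.14, adjusted p = 1.77e-09) and 1.28. Gria2, the AMPA receptor subunit that limits calcium entry, had 1150 and 971 CPM in CcKO, against 1360 and 1240 CPM in WT, and fell by 0.30 and 0.59 on the log2 scale. Of 29 genes of synaptic vesicles and scaffolds, 16 rose and 5 fell, and length removed 8 rose and 6 fell. Without WT replicate 2 the rises numbered 10, and 5 length removed. Shank2, a postsynaptic scaffold, rose by 0.95 and 0.69.

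Markers of other cells were examined next. Of the 18 interneuron genes tested, 3 rose and none fell in both fits, beside 17.4% of all genes that rose with the trend kept and 9.34% length removed. Erbb4 and Sp8 were among the 3. Without CcKO replicate 2, 1 member rose with the trend kept and none length removed. The list summed to 174 and 215 CPM in CcKO, against 156 and 172 CPM in WT. Sp8, a zinc-finger factor of interneurons, had 2.91 and 4.85 CPM in CcKO, against 1.96 and 2.28 CPM in WT, a log2 change of 0.87 (SE 0.24, adjusted p = 0.0057; length removed 0.74). The call was lost without CcKO replicate 2 (0.43, adjusted p = 0.263), and, length removed, also without WT replicate 1 (0.63, adjusted p = 0.172) or WT replicate 2 (0.87, adjusted p = 0.0805). Reln, the signal of Cajal-Retzius cells and later of interneurons, had 41.6 and 61.4 CPM in CcKO, against 17.4 and 20.2 CPM in WT, with log2 fold changes of 1.46 (SE 0.13, adjusted p = 9.34e-10) and 1.02. The part of sorted interneurons in these values was not tested.

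Erythroid genes summed to 14.1 CPM in both CcKO libraries, against 5.38 and 4.21 CPM in WT, with 3 of 10 at 0 counts in all 4. Hba-a1, an α-globin gene with a near-identical copy in Hba-a2, had 7.99 and 4.96 CPM in CcKO, against 1.28 and 0.678 CPM in WT, and rose by 2.74 (SE 0.31, adjusted p = 8.39e-08; length removed 3.05). Hba-a2 rose by 1.58 and 1.87. It had 0.93 (adjusted p = 0.24) without CcKO replicate 2, and 1.23 (0.158) length removed, and its call was also lost without WT replicate 2 (adjusted p of 0.0712 and 0.0588). Reads of the copies cannot be split with certainty. Microglial genes summed to 14.9 and 17.6 CPM in CcKO, against 13.9 and 15.6 CPM in WT, with overlapping groups, and choroid plexus genes to 1.57 and 2.35 CPM in CcKO, against 2.39 and 1.50 CPM in WT, with 4 of 10 at 0 in all 4 libraries.

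Of 21 astrocyte lineage genes, 5 rose and none fell, and 3 rose length removed (1 without WT replicate 2). Slc1a2, the glutamate transporter GLT-1, had 23.8 and 22.7 CPM in CcKO, against 12.8 and 11.3 CPM in WT, with log2 fold changes of 0.95 (SE 0.13, adjusted p = 1.90e-06) and 0.49, with an adjusted p of 0.0703 length removed without WT replicate 2. Sparcl1, a secreted protein of astrocytes and radial glia, rose by 0.48 and 0.46. Beside the rises on the astrocyte list, 17.4% of all genes rose, and 9.34% length removed. Of 15 oligodendrocyte lineage genes 4 rose, and 2 length removed, with Sox6 at 0.76 and 0.43; with the trend kept, 2 rose without CcKO replicate 1 or without WT replicate 2.

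Calls among genes with short transcripts were fewer once the trend was taken out. Of 40 ribosomal protein genes, 36 fell and none rose, with a median of -0.34; length removed, 10 fell (5 without WT replicate 2) and 1 rose, with a median of -0.09. Rps24 had 576 and 625 CPM in CcKO, against 821 and 850 CPM in WT, with log2 fold changes of -0.48 (SE 0.05, adjusted p = 4.83e-09) and -0.22. Ribosomal protein genes have many processed copies in the genome, and how the authors' counting treated reads shared with them is not given in the sources used here. Of 33 nuclear genes of the respiratory chain, 22 fell with the trend kept (13 without WT replicate 2) and 1, Uqcr10, fell length removed, a call lost without CcKO replicate 1 or WT replicate 2 (adjusted p of 0.257 and 0.15).

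The same held for many genes with long transcripts. Of 38 chromatin regulators, 28 rose and 2 fell, with a median of 0.28; length removed, 6 rose and 5 fell (2 fell without WT replicate 2), with a median of 0.0032. Crebbp, a histone acetyltransferase, had 251 and 228 CPM in CcKO, against 134 and 126 CPM in WT, and rose by 0.88 (SE 0.06, adjusted p = 1.40e-12) and by 0.60 length removed. Ezh2, the methyltransferase of Polycomb complex PRC2, had 170 and 177 CPM in CcKO, against 199 and 215 CPM in WT, and fell by 0.25 and 0.23 on the log2 scale. Its fall and the rise of Crebbp were called in both fits, though length removed Ezh2 had an adjusted p of 0.0506 without WT replicate 2.

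**Figure D4:**
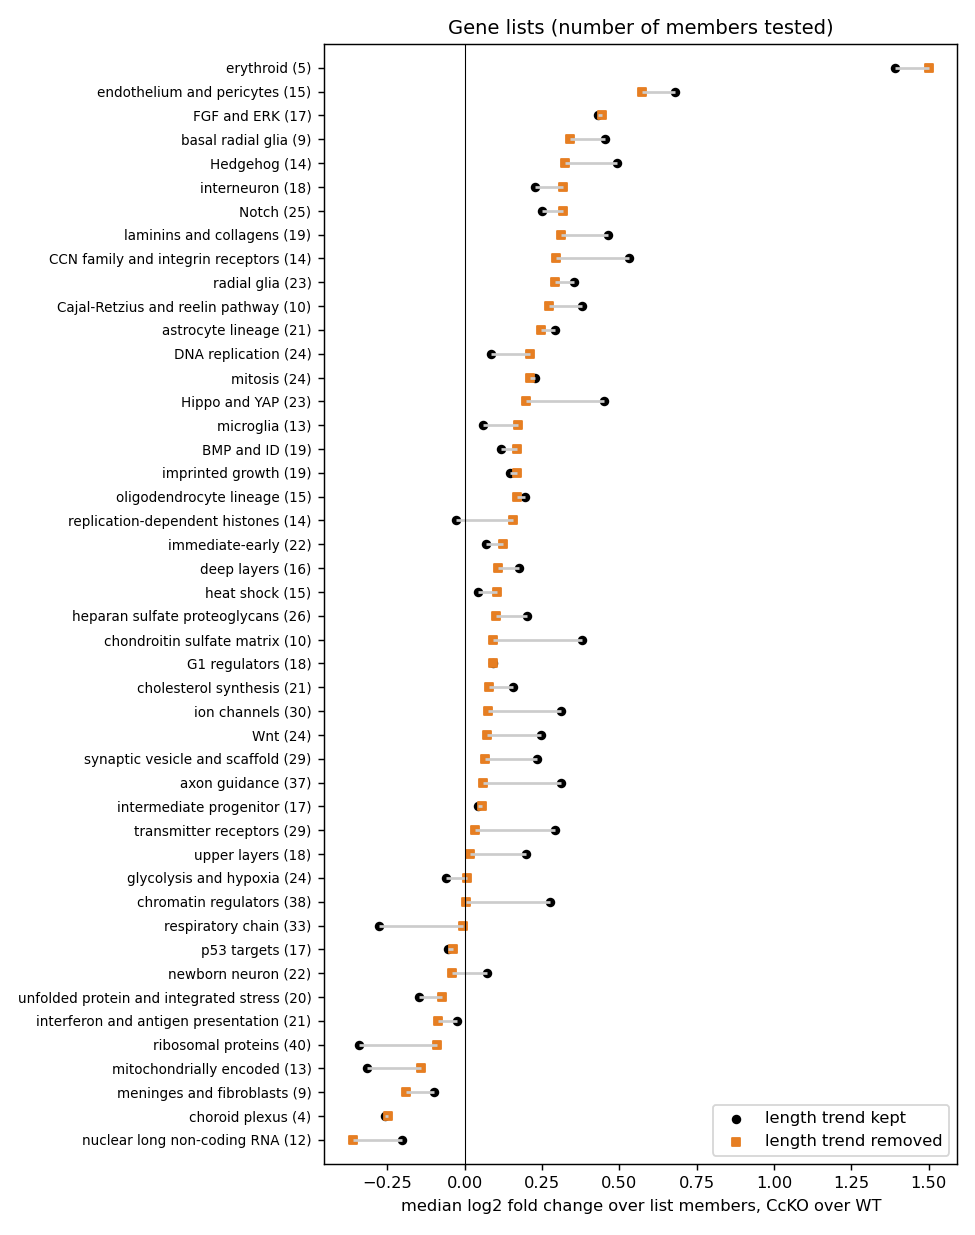
Median log2 fold change, CcKO over WT, of the members tested in each of 46 gene lists, with the length trend kept (black circles) and removed (orange squares); the number tested is in brackets. Radial glia, Notch, FGF and ERK, and Hedgehog medians lie between 0.29 and 0.44 length removed. So do those of basal radial glia (0.34), interneurons (0.32), laminins and collagens (0.31), and the CCN family and integrin receptors (0.29). Medians of endothelium and pericytes (0.57) and of erythroid genes (1.5) are higher, though none of the 15 endothelial and pericyte genes was called length removed. Those of chromatin regulators (0.0032) and the respiratory chain (-0.0057) come to lie near 0.

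Of 21 cholesterol and lipid synthesis genes, 8 rose and 2 fell, and length removed 5 rose and 1 fell. Without CcKO replicate 2 the rises numbered 5, and 3 length removed. Lss, lanosterol synthase, had 52.5 and 55.1 CPM in CcKO, against 35.1 and 33.6 CPM in WT, and rose by 0.65 and 0.63. Fasn, fatty acid synthase, rose by 0.75 and 0.37, and Scd2, a desaturase, by 0.51 and 0.33. Of 22 immediate-early genes 3 rose and 2 fell, beside 17.4% and 12.9% of all genes. Length removed, 2 rose and 1 fell, beside 9.34% and 7.96%. Egr3 had 9.60 and 8.91 CPM in CcKO, against 4.35 and 4.42 CPM in WT. Its log2 fold change was 1.08 (adjusted p = 0.0014), and 1.24 length removed. Nr4a3 rose by 1.54 and 1.64. Without CcKO replicate 1, 6 immediate-early genes rose, and 5 length removed.

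Of 12 nuclear long non-coding RNAs, 2 rose and 5 fell, and none rose and 5 fell length removed. Besides Meg3 and Rian, Gas5, a snoRNA host transcript, had 264 and 285 CPM in CcKO, against 360 and 375 CPM in WT, and fell by 0.42 and 0.39 on the log2 scale. Miat fell by 0.20 and by 0.54 length removed. With the trend kept it had -0.06 (adjusted p = 0.334) without CcKO replicate 2 and -0.18 (adjusted p = 0.0932) without WT replicate 2. Of 19 imprinted growth genes 5 rose and 5 fell, and length removed 6 rose (3 without WT replicate 2) and 3 fell; the paternally expressed Peg3 rose by 0.79 and 0.54 and Plagl1 by 0.59 and 0.42. Lists of p53 targets, interferon and antigen presentation, heat shock, and unfolded protein and integrated stress genes had 3, 0, 0 and 1 rises among 17, 21, 15 and 20 tested genes. Length removed they had 2, 1, 0 and 0 rises. Falls numbered 2, 1, 2 and 7 with the trend kept, and 1, 0, 0 and 2 length removed. The 7 falls of the unfolded protein and integrated stress list became 3 and 11 without CcKO replicates 1 and 2, and 2 without WT replicate 2. Hsp90b1, a chaperone of the endoplasmic reticulum, fell by 0.26 and 0.24 on the log2 scale.

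The neighbourhood of Ccn1 was examined because linked genes are inherited together with a targeted allele. Within 10 Mb on either side, 13 of 64 tested genes rose and 4 fell, which is 26.6% against 30.3% of all genes. Length removed, 7 rose and none fell, 10.9% against 17.3%. Without WT replicate 2, the 17 calls with the trend kept became 7. Dnajb14, a co-chaperone gene, had 6.42 and 7.17 CPM in CcKO, against 3.16 and 1.71 CPM in WT (log2 fold change 1.50, adjusted p = 3.75e-05; length removed 1.60). St6galnac3, a sialyltransferase gene, rose by 1.23 and 1.14. Ddah1, 0.112 Mb from Ccn1, on the radial glia list and named after its values were seen, rose by 0.62 and 0.54.

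The knockout was then set beside added CCN1, in which ICR cells carrying a CCN1 plasmid (PB-CCN1) are compared with their own controls (PB-Ctrl) at E15.5. That comparison shares no library with the knockout, though strain, age and days after electroporation differ. Apart from Ccn1 itself, added CCN1 raised 67 genes and lowered 115, 0.442% with Ccn1 counted and 0.748% of the genes tested. Of the 115 genes lowered by added CCN1, 46 (40.0%, and 1.72% of the CcKO rises) rose in CcKO, beside 17.4% of all genes. Length removed in both, 25 of 106 (23.6%, and 1.74% of the CcKO rises) did so, beside 9.34% of all genes. Of the genes raised by added CCN1, 10 of 67 (14.9%, and 0.504% of the CcKO falls) fell in CcKO, beside 12.9% of all genes. Length removed, 11 of 71 (15.5%, and 0.899% of the CcKO falls) did so, beside 7.96% of all genes. Moves in the same direction were 12 of the 115 (10.4%) and 11 of the 67 (16.4%), and length removed 8 of 106 (7.55%) and 3 of 71 (4.23%). The number called in opposite directions, 56 in all, moved with the libraries and the tool: it was 93 and 98 without CcKO replicates 1 and 2, 27 without WT replicate 2 length removed, and 7 by limma.

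In both fits 26 genes were called in opposite directions, 22 of them higher in CcKO and lower with added CCN1; they were picked for this, so their directions are a description. They include Tnc, Notch2, Gas1, Mcm3, Top2a, Ccnd1, Fat4, Bmpr1a, Chd7, Sall3 and Slc1a3. Length removed, the CcKO rise of Top2a lost its call without CcKO replicate 2 or WT replicate 2, and that of Ccnd1 without CcKO replicate 2 or WT replicate 1. Tnc, given above for the knockout, had 86.3 and 88.1 CPM in PB-CCN1, against 129 and 128 CPM in PB-Ctrl, a log2 change of -0.56 (adjusted p = 6.49e-06). Slc1a3, the glutamate transporter GLAST of radial glia, had 95.3 and 103 CPM in CcKO, against 72.4 and 69.1 CPM in WT, and 62.3 and 62.6 CPM in PB-CCN1, against 74.3 and 78.9 CPM in PB-Ctrl. Sall3 had 46.1 and 47.3 CPM in CcKO, against 27.3 CPM in both WT libraries, and 24.1 and 24.9 CPM in PB-CCN1, against 38.7 and 40.1 CPM in PB-Ctrl. The groups of these 3 genes did not overlap in either comparison. They come from genes picked for calls in both comparisons, so this is a description. Over all genes tested, both CcKO libraries were above both WT libraries for 32.7% and below them for 28.6%.

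**Figure D5:**
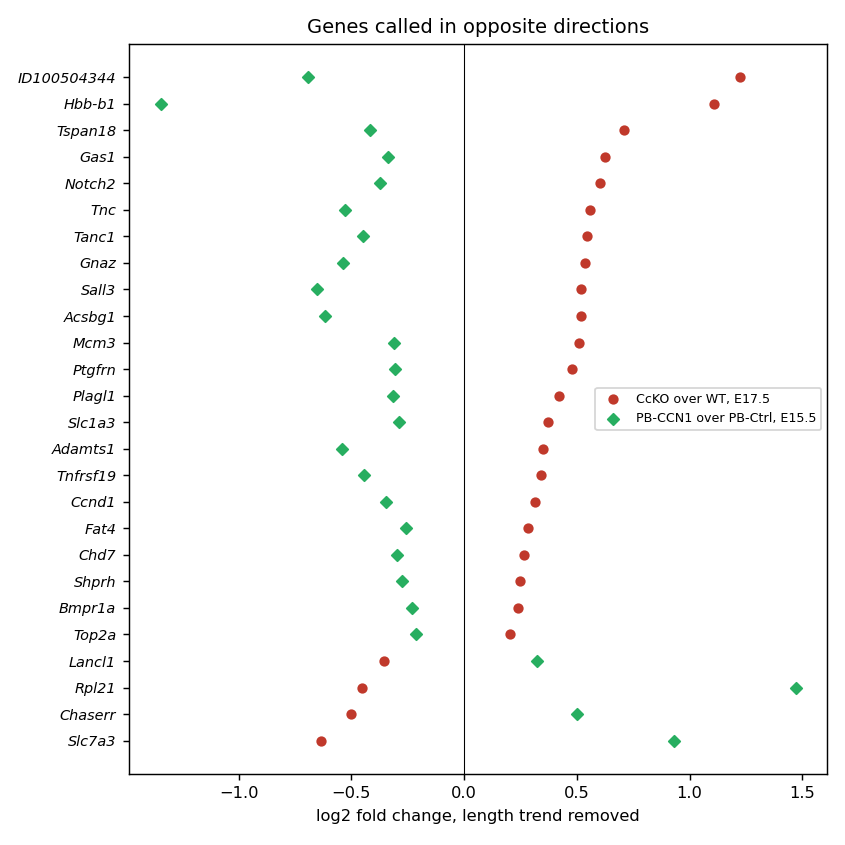
Log2 fold change, length trend removed, of the 26 genes called in opposite directions in both fits, for CcKO over WT at E17.5 (red circles) and PB-CCN1 over PB-Ctrl at E15.5 (green diamonds). For 22 genes the CcKO value is above 0 and the PB-CCN1 value below it, and Tnc stands at 0.56 and -0.53.

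The annotation of the genes with the largest rises was then examined. The longest GENCODE M21 transcript was at least 2 times the deposited length for 45.0% of the 209 genes with a transcript among those that rose at least 2-fold length removed, against 8.29% of all genes tested. Their median deposited length was 2632 bases and their median longest transcript 6108 bases. The share was 20.1% over all genes called higher length removed and 4.22% over those called lower. Taking out the trend with this ratio too, an alternative chosen after the data were seen, left 1474 genes higher and 1161 lower.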

How the data were processed

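Transcripts were measured by bulk mRNA sequencing of sorted GFP-positive cells. Per the labels' protocols, RNA was extracted with TRIzol and the KAPA Hyper Prep kit served for libraries; per the submitters' processing notes, bcl2fastq, Trimmomatic, HISAT2, featureCounts and mm10 were used, with no versions, and the strand setting is not given in the sources used here. The authors deposited raw read counts per Entrez gene ID, together with FPKM, the count scaled to gene length and library total. The ratio of deposited counts to FPKM gave 1 whole-number length per gene, with a deviation of 0 bases across libraries, for all but 6586 IDs with no length. RefSeq tables gave symbols for 25274 of 27178 IDs and GENCODE M21 for 18 more. Total counts, the depth behind each value, were 25235270 and 27734988 in CcKO and 23175919 and 27646961 in WT.

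Counts were tested with the edgeR 4.0.16 quasi-likelihood F-test (R 4.3.3; TMM, filterByExpr with a minimum count of 10, 5 group means over the 10 libraries, two-sided, Benjamini-Hochberg over 15371 genes, threshold 0.05). In the second fit, a lowess curve (span 0.3) of log2 CPM (prior count 2) minus the gene mean on log2 length was taken from each library as an offset. CPM is TMM-normalised, and SE is the log2 fold change divided by the square root of F. Summed levels of lists keep the length trend. Both fits were first run on simulated data without and with a length trend, which was placed in the CcKO libraries. In the deposited data the WT libraries carry the trend, so that run is not a check of the calls here.

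The gene lists and other choices were made with earlier results of these data known, and 2 list entries matched no gene. Named genes are Ccn1; the 12 largest rises and falls by length-removed fold change, called in both fits with a mean of at least 1 CPM, groups apart and no predicted name; up to 4 members per list called in both fits, or else the 2 with the smallest p; and up to 4 called genes near Ccn1. Genes outside this rule are marked, and some genes that the rule names are not reported here. The alternatives were another scaling (relative log expression), no filter, another span, a replicate block, E17.5 alone, DESeq2 1.42.0, limma 3.58.1 on log2(FPKM + 1) and each library left out. Promoters came from the RefSeq table for GRCm38.p6.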

Additional observations from a re-analysis of the deposited data

How the results depend on the processing

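Ccn1 fell under every alternative run (log2 fold change -2.18 by limma on log2(FPKM + 1) to -2.98 by DESeq2; -4.47 to -2.24 with 1 library left out, and -4.36 to -2.17 length removed). The 4663 calls (2676 higher, 1987 lower) became 2659 (1435 higher, 1224 lower) length removed and 2635 (1474 higher, 1161 lower) with the transcript ratio trend also removed, an alternative chosen after seeing the data, and 417 at 2-fold. Leaving out 1 library gave 2919 to 4164 calls (1856 to 2452 higher, 1063 to 1867 lower), lowest without WT replicate 2, and 1493 to 2724 (842 to 1460 higher, 651 to 1264 lower) length removed. DESeq2 called 4241 genes, limma 4086 (2031 higher, 2055 lower). The replicate numbers did not pair the libraries (correlation of deviations 0.00295); with the number as a block 4567 genes were called, and 2594 length removed. Within 10 Mb of Ccn1 the 17 calls became 6 (E17.5 alone, length removed; both trends removed), 7 (length removed, either span or with the block) and 5 to 9 (1 library left out, length removed); with the trend kept they were 7 (without WT replicate 2) to 16 with 1 library left out, and 9 within 5 Mb and 32 within 20 Mb. The 56 genes opposite to added CCN1 became 35 (both trends), 36 (length removed, either span), 31 (length removed with the block), 7 (limma), 111 (no filter), and 53 to 98 with 1 library left out (27 to 75 length removed, with 33 without WT replicate 1). The 23 in the same direction became 14 (both trends), 11 (length removed, either span), 8 (length removed with the block), 5 (limma), and 13 to 30 with 1 library left out (8 to 39 length removed). For Hes5, uncalled, the log2 fold change of -0.13 turned to 0.069 length removed (0.063 with span 0.6, 0.073 with the block and length removed, 0.077 for E17.5 alone and length removed, 0.079 with both trends) and lay between 0.023 and 0.372 in the runs that turned it with 1 library left out, among them 0.098 without CcKO replicate 2, length removed, and 0.211 without WT replicate 2, against -0.381 without WT replicate 1; Nes turned to -0.008 without CcKO replicate 2, length removed. The causes were not tested. Group and library preparation cannot be told apart with 2 libraries per group, and low genes are limited by their counts.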
